A study of Mus musculus with 12 samples.

Results

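The 10 genes described here were chosen by their array signal, which moved in the same direction with tamoxifen in isolated mouse glomeruli and in primary podocyte cultures at day 7. Ces1f, Gys1, C1ql3, Slc35g1, Tpd52l1 and Rab11fip5 were higher with tamoxifen in both, and Cabp5, Lzts3, Ddx25 and Rhox3a were lower. They are 10 of 15226 named genes tested, and all 10 passed the filter on dim probes, which needed 2 or more of the 12 arrays to show a signal well above background. Rhox3a passed it only through the control glomeruli and C1ql3 only through the cultures, where their signals are highest. The glomerular and day 7 differences chose the genes and are given below as a description. The day 4 cultures, the level in cultures against glomeruli and the level at day 7 against day 4 did not enter the choice as differences, and these were tested, with a spread that the test estimates over all 12 arrays and so shares with the comparisons that chose the genes.

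Each of 12 samples, in 6 groups of 2, had its total RNA read on its own one-colour Agilent array. All samples, controls included, carried an inducible Cre recombinase and floxed Foxc1 and Foxc2 alleles. The number after Foxc in the label of the second floxed gene changes between samples, so its name was taken from the title of the series. Which promoter drives the Cre is not given in the sources used here. Glomeruli came from control mice that received no agent and from tamoxifen-treated mice. The age given is 8 weeks and the day of isolation day 7 for both groups. For the treated mice, 8 weeks is the age when 3 daily injections began. The cultures were podocytes grown out from glomeruli of adult mice, mock-treated or treated with tamoxifen, with RNA taken at 4 or 7 days. Tamoxifen also binds oestrogen receptors, and every tamoxifen group is also the group in which the floxed genes were meant to be deleted. The drug and the deletion therefore cannot be told apart in these 12 samples, and only RNA was read, so deletion itself was not measured. The glomerular labels name separate mice, while nothing states that cultures of 1 group were grown separately, so p-values measure the spread between these samples, which may be technical.

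Podocytes are epithelial cells that surround the capillaries of the glomerulus and, through the slit diaphragm between their foot processes, form the last layer of the kidney filter. Foxc1 and Foxc2 are closely related forkhead transcription factors that podocytes express in development and in the adult. Tamoxifen activates an inducible Cre, which then removes floxed exons. The 10 genes do not belong to 1 known pathway: they encode an ester hydrolase, a glycogen enzyme, a secreted ligand, membrane traffic proteins, a calcium sensor, a scaffold protein, an RNA helicase and a homeobox protein.

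RefSeq promoter windows on assembly GRCm38.p6, from 250 bases before to 50 bases after the gene start, were held for 9 of the 10 genes (all but Ces1f). Windows of 2 genes that were higher with tamoxifen and 2 that were lower are shown, because their signals were well above background on all 12 arrays and they differ in base composition. Sequences run 5′ to 3′ on the gene's strand, in lower case, and capitals mark the only motif found.
Slc35g1 (chr19:38395730-38396029, plus strand): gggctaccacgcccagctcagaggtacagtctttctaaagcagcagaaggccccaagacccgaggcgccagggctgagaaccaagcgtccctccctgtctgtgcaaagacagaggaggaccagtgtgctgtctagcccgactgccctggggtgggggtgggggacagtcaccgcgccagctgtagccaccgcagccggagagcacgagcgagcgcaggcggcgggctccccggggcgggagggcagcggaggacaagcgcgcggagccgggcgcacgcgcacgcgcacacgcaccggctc
Gys1 (chr7:45434589-45434888, plus strand): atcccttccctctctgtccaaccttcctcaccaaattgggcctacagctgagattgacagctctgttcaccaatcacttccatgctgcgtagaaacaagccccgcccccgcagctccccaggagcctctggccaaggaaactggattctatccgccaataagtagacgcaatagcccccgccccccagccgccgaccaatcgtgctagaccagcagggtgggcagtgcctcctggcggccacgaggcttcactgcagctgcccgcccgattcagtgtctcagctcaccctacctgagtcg
Cabp5 (chr7:13397905-13398204, plus strand): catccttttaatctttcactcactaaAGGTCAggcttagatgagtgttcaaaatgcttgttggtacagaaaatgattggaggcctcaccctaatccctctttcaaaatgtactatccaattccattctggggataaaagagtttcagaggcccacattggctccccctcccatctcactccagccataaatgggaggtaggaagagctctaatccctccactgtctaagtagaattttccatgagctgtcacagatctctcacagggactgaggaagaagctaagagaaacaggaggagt
Lzts3 (chr2:130642795-130643094, minus strand): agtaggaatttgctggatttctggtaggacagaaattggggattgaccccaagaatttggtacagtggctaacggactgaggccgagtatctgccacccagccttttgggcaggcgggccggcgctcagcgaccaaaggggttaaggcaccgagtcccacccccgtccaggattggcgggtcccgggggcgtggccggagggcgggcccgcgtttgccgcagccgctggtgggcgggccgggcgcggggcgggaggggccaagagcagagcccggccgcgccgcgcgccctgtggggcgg
Each window was searched on both strands for the forkhead core motif GTAAACA, for its forms with A first (ATAAACA) or with T next to last (GTAAATA), for the palindromic oestrogen response element with any 3 bases in its middle, and for the single-arm sequence AGGTCA, which can overlap it. Any of the 3 forkhead motifs was present in 10.6% of 32851 promoter windows and in 0 of the 9 member windows. The full oestrogen element was present in 0.07% of all windows and in 0 of the 9. AGGTCA was present in 16.3% of all windows and in 1 of the 9, at position -224 from the Cabp5 start. GC content ran from 42% for Rhox3a and 44.7% for Cabp5 to 73.3% for Rab11fip5 and 75% for Ddx25, with 7 of the 9 windows above 58% and a median of 52.7% over all windows. A match is only a match of letters, and its absence here says nothing about sites elsewhere.

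Levels are log2 signals relative to the 75th percentile of the same array, so 0 is that percentile and each unit is a doubling. Between 57.9% and 63.4% of spots per array were well above background, 0 were saturated, and replicate arrays correlated at r = 0.983 to 0.990. The lowest signal well above background lay between -6.12 and -5.48, and only a bound can be given for a gene below it on every array of a group. With 2 samples a group, an exact permutation test of 1 gene cannot go below p = 0.333, so all tests below are limma's, which shares the spread across genes, with Benjamini-Hochberg adjustment over all 15226 genes. Foxc2 was 2.10 and 2.24 in control glomeruli and -1.12 and -0.19 after tamoxifen. In cultures it was at least 139-fold lower at day 4 and at least 151-fold lower at day 7, where its treated signal was not well above background. Foxc1 was 2.92 and 2.80 in glomeruli without and 0.92 and 1.09 with tamoxifen. In cultures Foxc1 was 3.09 and 4.21 (mock) against -5.78 and -1.74 (treated) at day 4, and 2.62 and 4.33 against -8.20 and -3.26 at day 7. Labels and targeted genes therefore ran the same way on all 12 arrays, but at both days culture 2 kept more Foxc1 signal than culture 1 in the mock and in the treated group alike. The 20 podocyte markers tested had a summed level of 531 to 681 times the 75th percentile signal in control glomeruli, 367 to 485 in treated glomeruli and 174 to 212 in cultures.

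**Figure D1:**
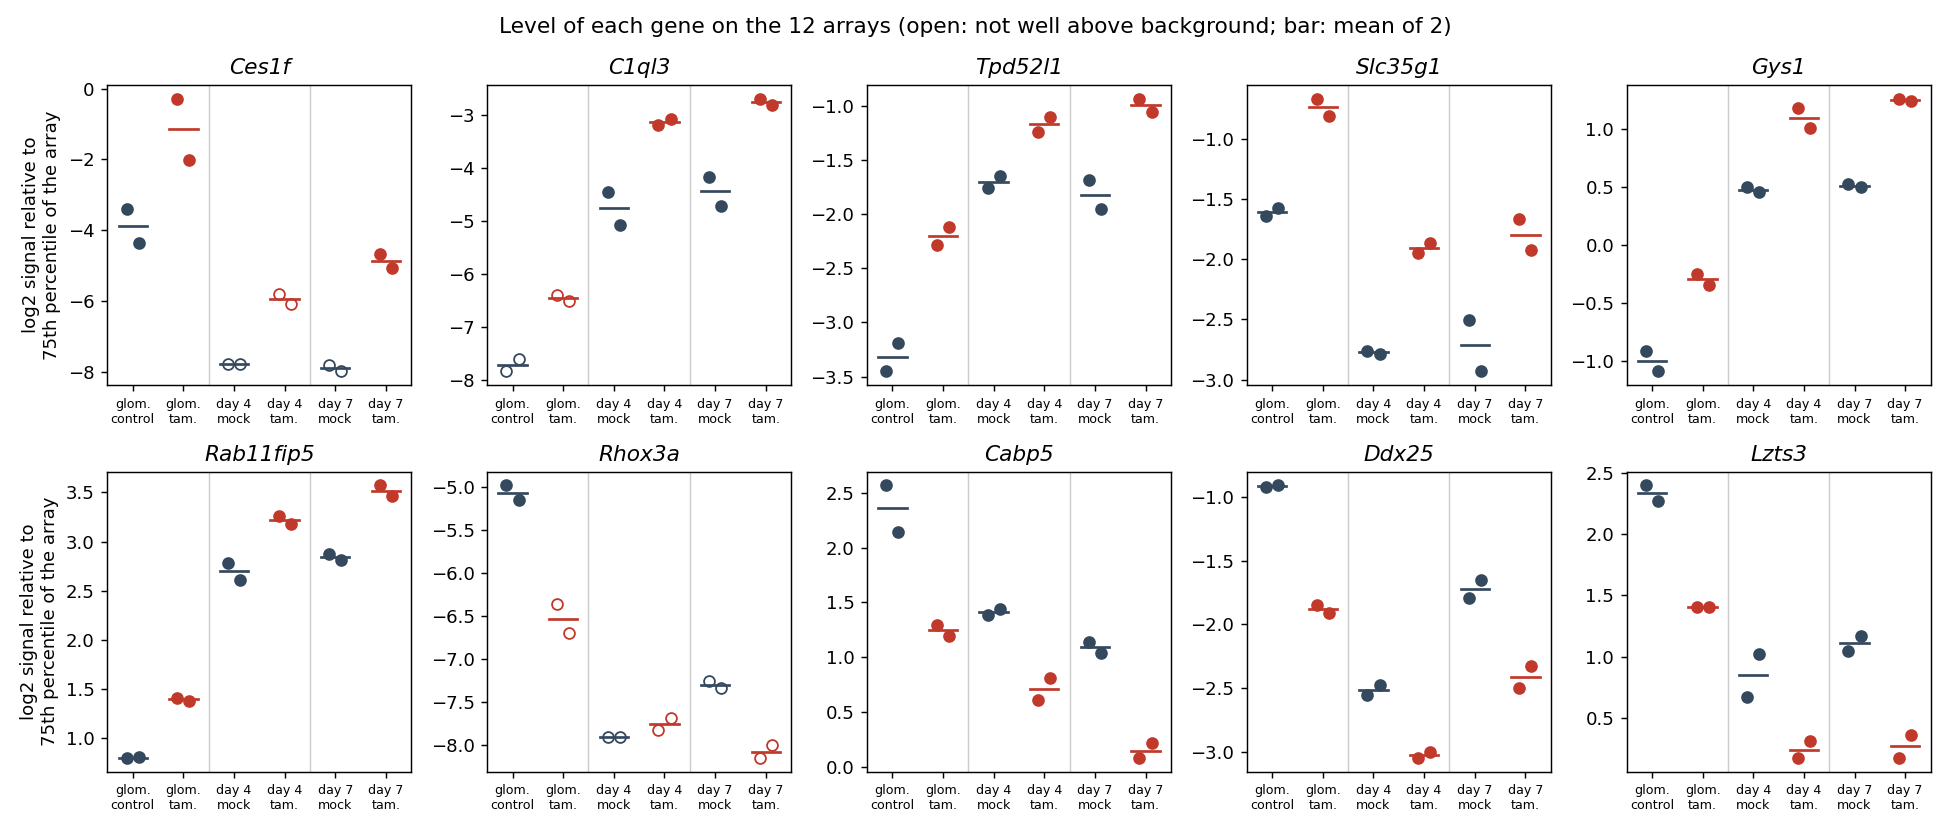
Log2 signal relative to the 75th percentile of the array (vertical axes, 1 scale per gene) for the 10 genes on 12 arrays, with controls or mocks in dark blue, tamoxifen in red, bars for the mean of 2 arrays and open circles for signals not well above background. Treated and control points do not overlap in any comparison. Rhox3a alone is above its mock at day 4 and below its controls elsewhere.

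Ces1f, a carboxylesterase of the endoplasmic reticulum that hydrolyses esters and lipids, showed the largest difference of the 10 in glomeruli. Its level there was -3.40 and -4.37 in controls and -0.28 and -2.02 after tamoxifen. The day 4 cultures were at -7.78 and -7.78 with mock and at -5.80 and -6.08 with tamoxifen. The day 7 cultures were at -7.80 and -7.99 with mock and at -4.68 and -5.06 with tamoxifen. Both treated arrays lay above both controls each time, but the treated glomeruli differed from each other by 1.74, more than replicates of any other of the 10 genes. The log2 difference was 2.74 (SE 0.52, n = 2 against 2) in glomeruli and 3.03 at day 7, where the treated cultures were at least 1.83-fold higher because the mock signal was not well above background. At day 4 all 4 signals were below that level, and their difference of 1.84 (SE 0.52) did not pass limma's test (adjusted p = 0.24).

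Markers of kidney tubule cells were also higher in the treated glomeruli. Of 24 tubule markers tested, 22 were higher after tamoxifen and 2 passed the test, with a median log2 difference of 1.17 and with 17 whose treated arrays lay above both controls. Their summed level was 192 and 235 times the 75th percentile signal in control glomeruli and 510 and 388 in treated glomeruli. Red cell markers ran the other way, with 4 of 6 called lower and a median of -4.52. The part of these markers in the glomerular differences of the 10 genes was not tested, and in such bulk samples fewer cells of a type cannot be told apart from less RNA per cell. In cultures the summed tubule level was 1.72 to 4.04, with 12 to 14 of the 24 markers not well above background on either array of a group. At day 7 the median tubule difference was 0.11.

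Gys1 encodes glycogen synthase of muscle and most other tissues, the enzyme that lengthens glycogen chains. Control glomeruli were at -0.91 and -1.09, treated ones at -0.25 and -0.34. Mock and treated cultures were at 0.50 and 0.45 against 1.18 and 1.01 at day 4. At day 7 they were at 0.52 and 0.50 against 1.26 and 1.24. Replicates lay within 0.18 of each other in every group, and treated arrays lay above controls throughout. Glomeruli and day 7 cultures differed from their controls by 0.70 and 0.74 on the log2 scale, or 1.63-fold and 1.67-fold. The day 4 difference of 0.62 (SE 0.11, n = 2 against 2; 1.54-fold) had an adjusted p of 0.075 in limma's test. Another Gys1 probe, also well above background on all 12 arrays, gave 0.58, 0.50 and 0.68 in glomeruli, at day 4 and at day 7.

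C1ql3 is a secreted protein of the C1q-like family, known as a synaptic ligand of the adhesion receptor Adgrb3. In glomeruli its signal was not well above background on any array, at -7.85 and -7.60 in controls and -6.40 and -6.51 after tamoxifen. In day 4 cultures it was -4.46 and -5.07 in mock and -3.18 and -3.07 after tamoxifen. In day 7 cultures it was -4.18 and -4.71 in mock and -2.69 and -2.81 after tamoxifen. All 8 culture arrays were well above background, with the treated ones on top at both days. The glomerular difference of 1.27 therefore compares signals below detection and is given with no fold. At day 7 the difference was 1.69, or 3.24-fold. At day 4 it was 1.64 (SE 0.23, n = 2 against 2; 3.12-fold), just outside limma's threshold at an adjusted p of 0.051, and it passed under 7 of 22 other settings (adjusted p 0.022 to 0.25).

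Slc35g1 is a multipass membrane protein of a transporter family, also described as a partner of the calcium sensor Stim1. Control glomeruli were at -1.64 and -1.58 and treated glomeruli at -0.67 and -0.81. In day 4 cultures, mock was at -2.76 and -2.79 and tamoxifen at -1.95 and -1.87. In day 7 cultures, mock was at -2.50 and -2.93 and tamoxifen at -1.66 and -1.93. The groups did not overlap, and of the 10 genes this one had the most even differences, 0.87, 0.86 and 0.92 in glomeruli, at day 4 and at day 7, or 1.83-fold, 1.82-fold and 1.89-fold. The day 4 value (SE 0.16, n = 2 against 2) had an adjusted p of 0.081 in limma's test.

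Tpd52l1 belongs to the tumour protein D52 family of coiled-coil proteins linked to vesicle traffic. Its glomerular level was -3.45 and -3.19 in controls and -2.29 and -2.12 after tamoxifen. Day 4 cultures gave -1.75 and -1.65 in mock and -1.24 and -1.10 in treated cells. Day 7 cultures gave -1.69 and -1.95 in mock and -0.93 and -1.06 in treated cells. Treated arrays were again the higher ones, and the log2 difference was widest in glomeruli, at 1.12 against 0.53 at day 4 and 0.82 at day 7. The day 4 difference (SE 0.14, n = 2 against 2) did not pass limma's test (adjusted p = 0.21).

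Rab11fip5 binds the GTPase Rab11 and acts in the return of cargo from recycling endosomes to the cell surface. In glomeruli it was 0.80 and 0.81 in controls and 1.41 and 1.38 after tamoxifen. The day 4 mocks were at 2.79 and 2.61, the treated cultures at 3.26 and 3.18. The day 7 mocks were at 2.87 and 2.82, the treated cultures at 3.57 and 3.46. Replicates lay within 0.18 of each other, and the groups were apart in each comparison. The differences of 0.59, 0.52 and 0.67 in glomeruli, at day 4 and at day 7 were the smallest among the 6 genes higher with tamoxifen, and correspond to 1.51-fold, 1.44-fold and 1.59-fold. At day 4 the SE was 0.10 and limma's adjusted p was 0.097.

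Cabp5 is a calmodulin-like calcium-binding protein best known from the retina. In glomeruli it was 2.57 and 2.15 in controls and 1.29 and 1.20 after tamoxifen. Mock cultures at day 4 were at 1.39 and 1.44, treated ones at 0.61 and 0.81. Mock cultures at day 7 were at 1.14 and 1.04, treated ones at 0.08 and 0.21. Treated arrays were below both controls in the 3 comparisons, by 1.11, 0.70 and 0.94 on the log2 scale, or 2.16-fold, 1.63-fold and 1.92-fold. The day 4 difference (SE 0.15, n = 2 against 2) had an adjusted p of 0.13 in limma's test. A further Cabp5 probe was not well above background on any of the 12 arrays and gave differences of 0.30, 0.15 and -0.08, so the pattern rests on 1 probe.

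Lzts3 is a leucine zipper scaffold protein that binds Shank and Sipa1l proteins at synapses. Control glomeruli were at 2.40 and 2.27 and treated glomeruli at 1.40 and 1.41. Day 4 mock cultures were at 0.67 and 1.02 and treated ones at 0.17 and 0.31. Day 7 mock cultures were at 1.05 and 1.17 and treated ones at 0.18 and 0.37. Treated arrays were lower each time, and the gap between the day 4 mock arrays, 0.35, was the widest between replicates of this gene. Lzts3 differed by -0.93 in glomeruli, -0.60 at day 4 and -0.84 at day 7. Its day 4 value (SE 0.14, n = 2 against 2) had an adjusted p of 0.16 in limma's test.

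Ddx25 is a DEAD-box RNA helicase known from male germ cells. In glomeruli it was -0.92 and -0.91 in controls and -1.85 and -1.91 after tamoxifen. Day 4 cultures gave -2.56 and -2.48 in mock and -3.05 and -3.00 in treated cells. Day 7 cultures gave -1.79 and -1.65 in mock and -2.50 and -2.33 in treated cells. Replicates lay within 0.17 of each other, and the treated arrays were lower in each comparison. The differences were -0.96 in glomeruli, -0.51 at day 4 (SE 0.10, n = 2 against 2; adjusted p = 0.11 in limma's test) and -0.69 at day 7. With normexp background correction the day 4 difference was 0.46. Of 6 germ cell markers tested, 0 were called in any tamoxifen comparison, and their median difference was 0.08, -0.03 and 0.01.

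Rhox3a belongs to an X-linked cluster of reproductive homeobox genes and has near-identical copies, so its probe may read more than 1 of them. In glomeruli its signal was -4.98 and -5.15 in controls, the only arrays where it was well above background, and -6.36 and -6.70 after tamoxifen. Day 4 cultures gave -7.91 and -7.91 in mock and -7.83 and -7.69 in treated cells. Day 7 cultures gave -7.26 and -7.34 in mock and -8.16 and -8.01 in treated cells. Treated glomeruli were at least 1.49-fold lower than controls. In cultures all 8 signals were below detection, the measured differences being 0.15 at day 4 (SE 0.14, n = 2 against 2; adjusted p = 0.79 in limma's test) and -0.78 at day 7, and no fold is given for either.

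Over the 10 genes, 9 had the same sign in glomeruli, at day 4 and at day 7, with no overlap between treated and control arrays in any of the 3, and Rhox3a was the exception. Without regard to direction, arrays did not overlap for 47.7% of all genes in glomeruli, 50.4% at day 4 and 41.3% at day 7. Each share is for 1 comparison, and the share of all genes meeting all 3 with the same sign was not counted. The glomerular and day 7 differences chose the genes, so the count of 9 is not free of the choice. Among the 9, C1ql3 in glomeruli and Ces1f at day 4 were not well above background on any array. At an adjusted p under 0.05, 10 were called in glomeruli, where 2.6% of all genes were, and 9 at day 7, where 0.972% were. These counts follow from the choice of genes. Rhox3a lay just outside the day 7 threshold (adjusted p = 0.0501), and Ces1f and Tpd52l1 just inside it (0.0471 for each). Over all genes, 11 were called in the same direction in both comparisons, 7 higher (0.046%) and 4 lower (0.0263%), and 0 in opposite directions. They were the other 9 of the 10 genes together with Foxc2, a targeted gene, and the forkhead gene Foxl1, whose differences were 2.70 in glomeruli and 1.69 at day 7.

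The day 4 difference was not used to choose the genes. Here limma called 0 of the 10 genes, where it called 0.21% of all genes. Without adjustment, 9 of the 10 had p under 0.05, 6 higher and 3 lower, against 10.9% of all genes (6.35% higher and 4.59% lower). The 9 include Ces1f, whose day 4 signals were not well above background on any array. The fit takes the SE of each gene from all 12 arrays, the comparisons that chose the genes included, so this count is not free of the choice. Fitted on the day 4 arrays alone, 9 of the 10 had an unadjusted p under 0.05, against 14.6% of all genes, and 0 of the 10 were called after adjustment. The spread of those arrays was also part of the SE behind the choice. Arrays did not overlap for any of the 10, as for 50.4% of all genes, and the direction was that of glomeruli and day 7 cultures for 9. Adjusted p ran from 0.051 for C1ql3 to 0.24 for Ces1f among the 9, and unadjusted p from 0.00012 to 0.0081. The 6 genes higher with tamoxifen had a median log2 difference of 0.99 in glomeruli, 0.74 at day 4 and 0.87 at day 7, and the 4 lower genes had medians of -1.04, -0.56 and -0.81. Over all genes the medians with sign were -0.05, 0.02 and 0.00, but the 10 genes were split by sign. Without sign, the medians were 1.04, 0.61 and 0.83 for the 10 genes and 0.22, 0.17 and 0.17 for all genes. The glomerular and day 7 sizes follow from the choice of genes. Differences between signals below detection (Ces1f at day 4, C1ql3 in glomeruli and Rhox3a in cultures) are part of these medians. With normexp background correction 8 of the 10 were called at day 4, but so were 5068 of all genes. The labels do not say whether day 4 and day 7 cultures came from the same mice, and culture 2 held more Foxc1 signal than culture 1 at both days, so whether the day 4 cells are independent of the day 7 cells cannot be told from these files.

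**Figure D2:**
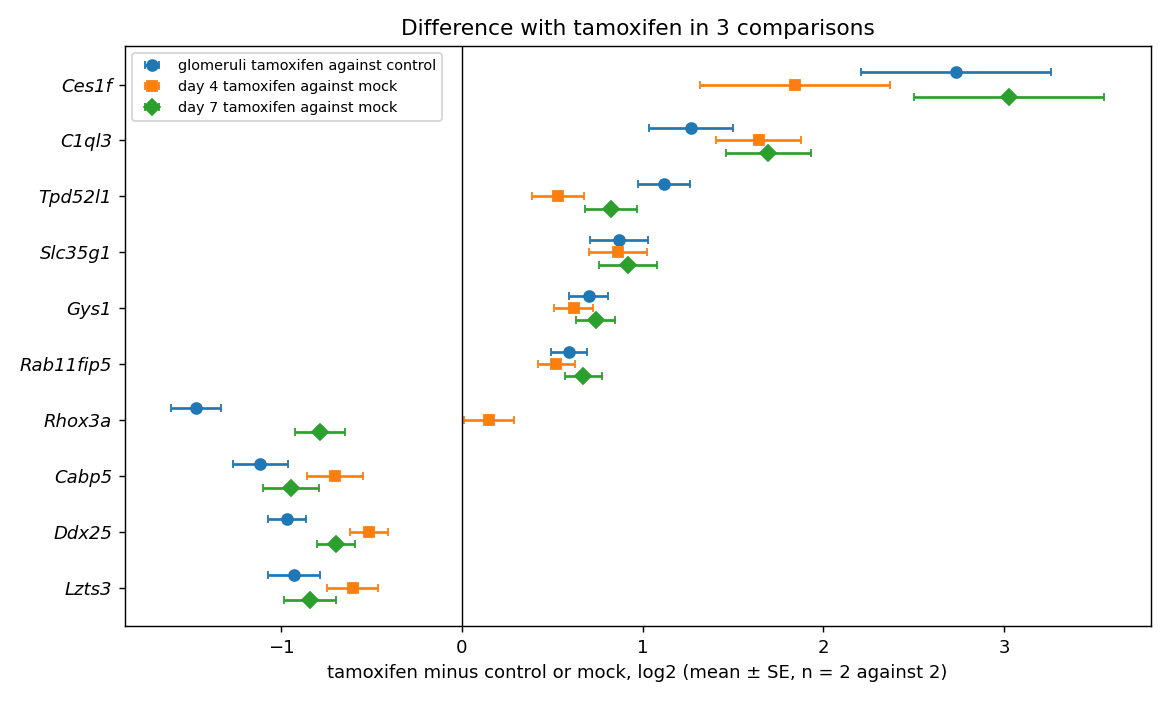
Log2 difference, tamoxifen minus control or mock (horizontal axis), for each of the 10 genes in glomeruli, day 4 and day 7 cultures, as the mean of 2 against 2 arrays with the SE of the fit. At day 4, 9 genes lie on the same side of 0 as in glomeruli and at day 7, and Rhox3a lies at 0.15.

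The 8 genes whose signals were well above background on all culture arrays, which leaves out Ces1f and Rhox3a, had a larger difference at day 7 than at day 4. For Tpd52l1 it went from 0.53 at day 4 to 0.82 at day 7 and for Lzts3 from -0.60 to -0.84. The change between the days was small for Slc35g1 (0.86 and 0.92) and C1ql3 (1.64 and 1.69). Among the 7 genes well above background on all 12 arrays, the largest of the 3 differences was in glomeruli for Tpd52l1, Cabp5, Lzts3 and Ddx25 and at day 7 for Gys1, Slc35g1 and Rab11fip5. Signals of Ces1f, C1ql3 and Rhox3a were in part too dim for their differences to be ordered. Since the day 7 values chose the genes, this order is a description and was not tested.

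The level in cultures against glomeruli was averaged over both treatments. C1ql3 passed the filter on dim probes through its culture signals alone and Rhox3a through its control glomeruli alone, so the direction of these genes was set by the filter and they are not counted here. The other 8 all differed in limma's test, 3 higher and 5 lower in cultures. Rab11fip5 was higher by 1.97 on the log2 scale (SE 0.06, 8 against 4 arrays; adjusted p = 6.8e-08), Gys1 by 1.48 and Tpd52l1 by 1.34. Lower in cultures were Ces1f by -4.10 (SE 0.32; adjusted p = 9.2e-06), Lzts3 by -1.25, Slc35g1 by -1.12, Ddx25 by -1.02 and Cabp5 by -0.96 (adjusted p = 3.2e-05). The Ces1f signal was well above background on only 2 of the 8 culture arrays, so its -4.10 is not a measured size. Over 21 other settings it ran from -4.54 to -1.13. The Rhox3a signal was below detection on all 8 culture arrays, and with normexp background correction its sign turned and its limma call was lost (adjusted p = 0.59). In this contrast 75.2% of all genes were called, 45.8% higher and 29.4% lower, so a call is no feature of the 10 genes. All glomerular arrays were on 1 slide and the cultures on 2 others, so slide and tissue cannot be told apart.

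**Figure D3:**
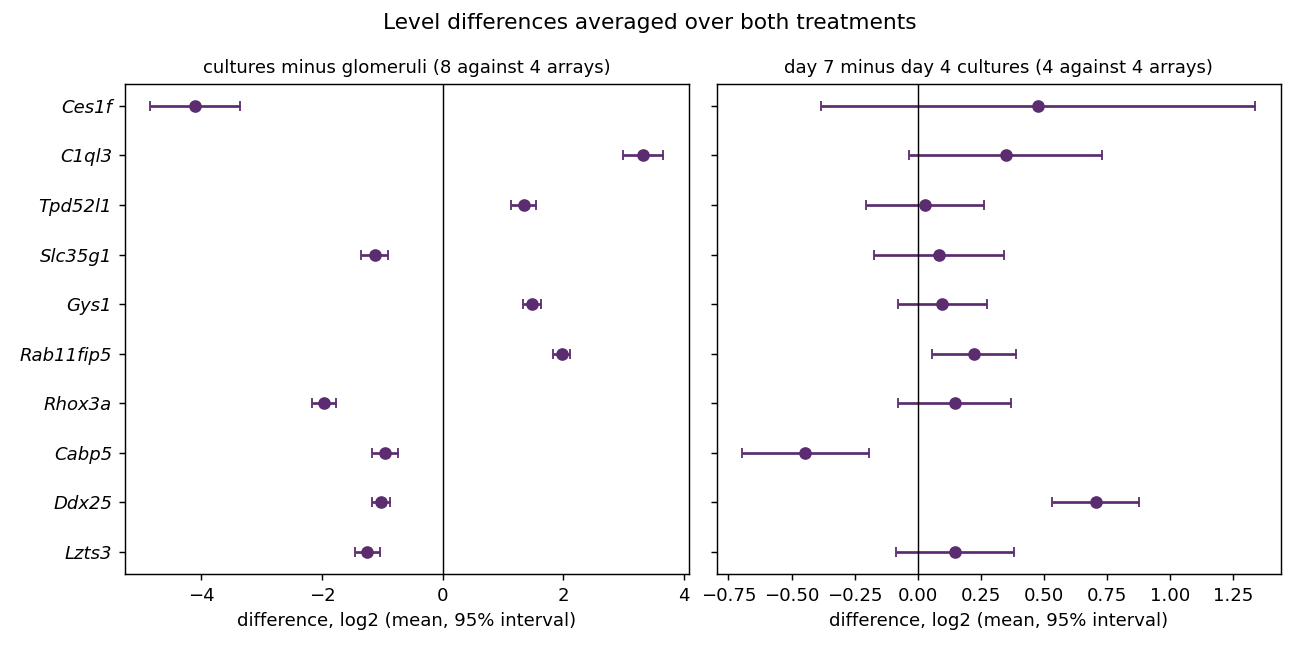
Log2 difference in level, cultures minus glomeruli (left) and day 7 minus day 4 cultures (right), each averaged over both treatments, with the 95% interval of the fit for each of the 10 genes. On the left 4 genes lie above 0 and 6 below, with C1ql3 and Rhox3a placed by signals that are below detection in glomeruli and in cultures, respectively. Ces1f was well above background on only 2 of the 8 culture arrays. On the right Ddx25 at 0.70 lies farthest from 0.

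Between day 4 and day 7 cultures, averaged over mock and tamoxifen, Ddx25 was the only one of the 10 genes that passed limma's test, and it rose by 0.70 (SE 0.07, 4 against 4 arrays; adjusted p = 0.014). It went from -2.52 to -1.72 in mock and from -3.03 to -2.41 in treated cultures, so its mean was higher at day 7 in both while it was lower with tamoxifen at both days. Its treated cultures at day 7 were therefore about level with its mock cultures at day 4. Cabp5 was lower at day 7 by -0.44 (adjusted p = 0.13) and Rab11fip5 higher by 0.22 (adjusted p = 0.27), neither past the threshold. For Gys1 the 95% interval of the difference was -0.08 to 0.27 and for Slc35g1 -0.17 to 0.34. In all, 1.2% of genes were called. Day 4 and day 7 arrays were on different slides, so day and slide cannot be told apart, and the Ddx25 call was lost when any of 7 single culture arrays was left out (adjusted p up to 0.082) and when only the culture arrays were fitted (0.055). With normexp background correction the difference was 0.07, and adjusted p over 22 settings ran from 0.012 to 0.79.

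The genes whose levels ran most closely with each of the 10 over the 12 arrays were found by Pearson's r, which here mixes tissue, day and tamoxifen and is given without a p. Gys1 ran closest with C1ql3 itself (r = 0.99), and Ces1f with the vesicular amine transporter Slc18a1 (0.98) and with Slc35g1 (0.97). Slc35g1 ran closest with Mogat2, an acyltransferase of fat synthesis (0.99), whose differences were 2.05, 2.27 and 2.06 in glomeruli, at day 4 and at day 7, and with the carbonic anhydrase gene Car2 (0.97; 1.70, 2.06 and 2.37). C1ql3 ran closest with Ank2 and with Bcat1, an enzyme of branched-chain amino acid breakdown (0.99 each), and Bcat1 differed by 1.91, 2.76 and 2.85. For Lzts3 the closest were Cd300lf (0.99) and Zdhhc7 (0.98), and for Cabp5 they were St6galnac1 (0.97; -1.08, -0.56 and -1.01) and Shc4. Rab11fip5 ran closest with Tctex1d2 and Tafa5, Tpd52l1 with Mdh2 and Inava, Ddx25 with Zdhhc4 and Ppil2, and Rhox3a with Mmp28 and Ero1b, at r from 0.95 to 1.00.

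For each gene a list of relatives and partners was drawn up, to show whether others of the same family were called. Among 7 carboxylesterases tested, 2 were called higher in glomeruli, Ces1f and Ces1e (2.03, adjusted p = 0.031 in limma's test), and 2 at day 7, Ces1f and Ces1d (2.90, adjusted p = 0.032). Ces1d was 2.00 higher in glomeruli without passing (adjusted p = 0.059). Its arrays moved in the same direction as those of Ces1f, though its glomerular levels were higher. Ces1d was at -0.42 and -0.53 in control glomeruli and at 2.30 and 0.77 in treated ones. At day 7 it was at -7.33 and -7.54 in mock and at -4.31 and -4.77 in treated cultures. Neither gene was well above background on the day 7 mock arrays, so the day 7 difference of Ces1d, like that of Ces1f, is taken against background. Ces1 genes lie close together and are similar in sequence, so how far their probes are separate was not tested. The Ces2 genes ran both ways in glomeruli, with Ces2b at 1.30, Ces2c at 0.27, Ces2e at -0.27 and Ces2g at -0.42, none called.

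Glycogen metabolism was covered by 27 tested genes. In glomeruli 3 were called, all higher: Gys1, the liver-type glycogen synthase Gys2 (1.81, adjusted p = 0.028 in limma's test) and Stbd1, which tethers glycogen to membranes (1.17, adjusted p = 0.013). At day 7 Gys1 was the only one called. The list's median difference was 0.04 in glomeruli, 0.11 at day 4 and 0.09 at day 7, against -0.05, 0.02 and 0.00 for all genes. In the same order 15, 17 and 23 of the 27 were higher and 12, 10 and 4 lower. The list was not tested as a set. Pgm1, which supplies glucose 1-phosphate, differed by 0.63, 0.70 and 0.78 without passing.

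In the other lists the gene itself was the only one called, in glomeruli and at day 7 (Rhox3a in glomeruli only), and at day 4 the count was 0 in all 10 lists. C1ql3 stood beside 4 other tested C1q-like, cerebellin or receptor genes and Tpd52l1 beside 5 others, of which Mal2 differed by 2.61 at day 4 and 2.63 at day 7 without passing (adjusted p = 0.28 and 0.22 in limma's test). Mal2 was not well above background on either day 4 mock array. Its day 7 mock arrays lay far apart, at -5.25 and -8.17, so neither difference is a measured size. Slc35g1 stood beside 11 others, among them Stim1 at -0.21 in glomeruli and -1.06 and -1.17 at day 4 and day 7, and Slc35f2 at 1.24, -1.06 and -1.29, none of them called. Rab11fip5 stood beside 14 others, with Rab11fip3 at 0.60 in glomeruli and -0.17 at day 4. The 8 other calmodulin-like genes, the 25 other DEAD-box helicases and the 9 other Rhox genes had no call. Among the DEAD-box list the median was -0.09 in glomeruli and -0.02 at day 4 and at day 7. Lzts3 stood beside 7 others, of which its partner Sipa1l1 was at 0.28, 1.14 and 1.26, opposite in sign to Lzts3 and not called.

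**Figure D4:**
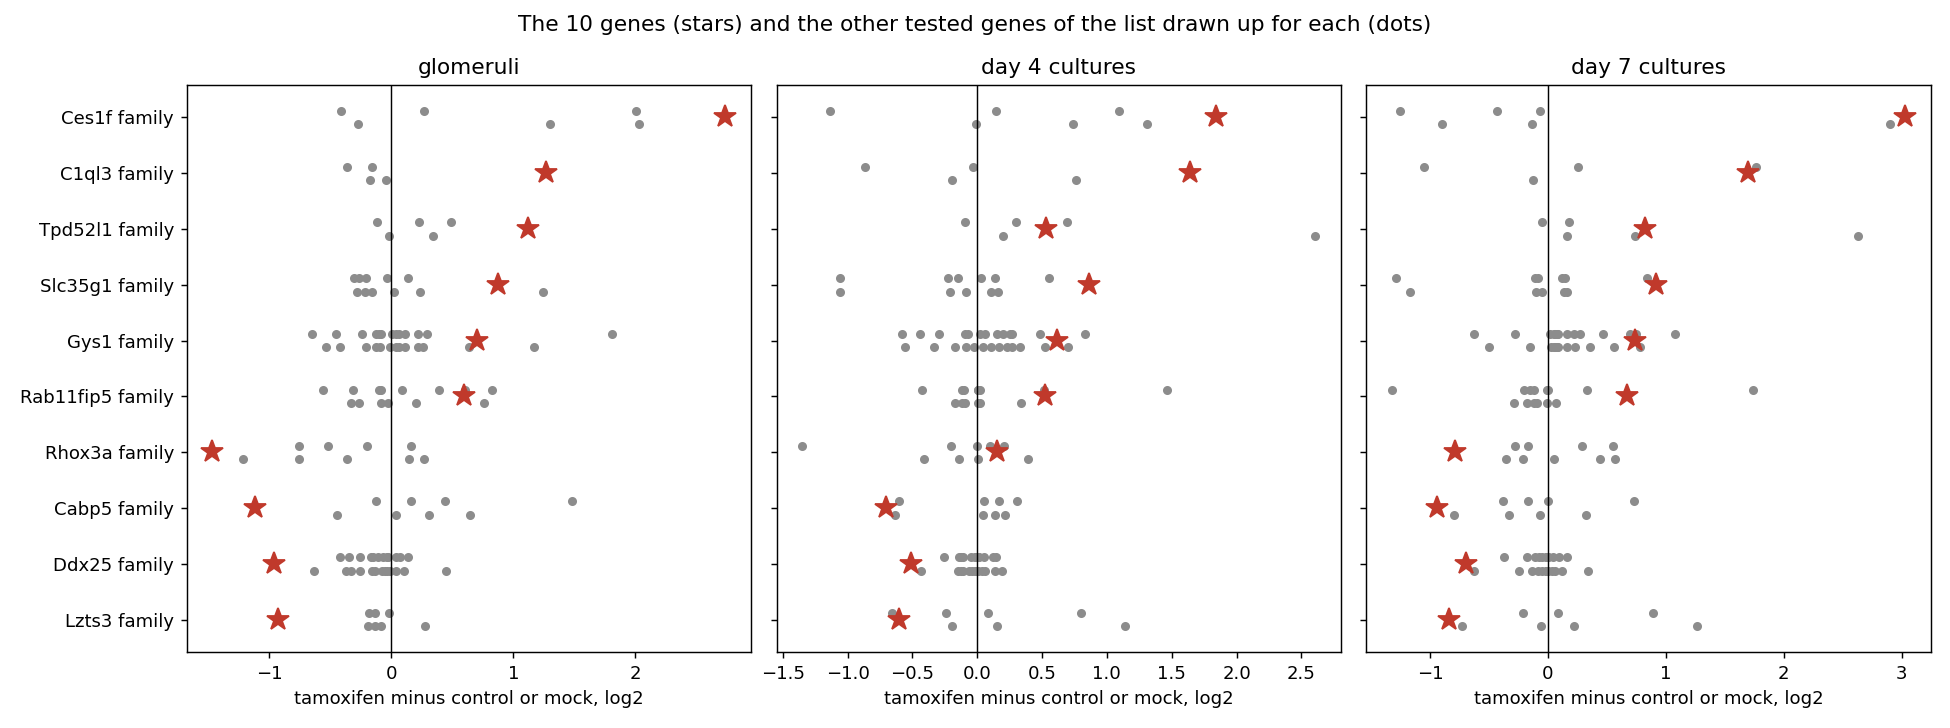
Log2 difference, tamoxifen minus control or mock (horizontal axes, 1 per comparison), of each of the 10 genes (stars) and of the other tested genes on the list for it (grey dots). Most dots lie near 0, with exceptions such as Gys2, at 1.81 in glomeruli, and Mal2 in the Tpd52l1 list, at 2.61 and 2.63 in cultures, which lie farther out than the stars of their lists. The Mal2 signal was not well above background on either day 4 mock array.

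Several of the 10 genes are best known from neurons, liver or germ cells, so markers of those cells were read beside them. Of 7 neuron and photoreceptor markers, the median difference was -0.26 in glomeruli, 0.00 at day 4 and 0.03 at day 7, and 1 was called, lower in glomeruli. Of 9 hepatocyte markers 0 were called, with medians of 0.74, -0.17 and -0.18, and in each culture group 4 of the 9 were well above background on both arrays. Podocyte markers had medians of -0.41, -0.27 and -0.25, with 2 of 20 called lower in glomeruli and 1 at day 7. In glomeruli the median was also -0.75 for 17 immune markers, -0.32 for 15 endothelial markers and 0.37 for 13 mesangial and smooth muscle markers. The part of these shifts in the differences of the 10 genes was not tested.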

How the data were processed

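Linear spot intensity, with the background already subtracted, and other columns that mark dim, saturated and outlier spots were deposited by the authors as scanner output of Agilent Feature Extraction (version 11.5.1.1 in the submitters' processing notes). Log2 values were deposited in the authors' value table. Scale, centring and direction are not stated for it. Its columns matched the scaled scanner values at r = 1.0 up to a constant of 0.094 to 0.12, so they are log2 values per sample, shifted per array and not centred by gene (column medians -4.14 to -3.81), and as single-sample values they have no direction. There were 0 array columns of no sample.

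Log2 processed signal minus each array's 75th percentile (505 to 760 units) was used, outlier spots (83 to 134 per array) were left out, and spots of a probe were averaged. Of 39429 probes, 26581 of the 28115 with a RefSeq accession were given 1 symbol through a GRCm38.p6 table, 0 had several and 12848 had none. For a gene with more than 1 probe, that with the highest mean was taken. A single fit of 6 group means over 12 arrays was made in limma 3.58.1 (R 4.3.3; 6 residual and 1.87 prior degrees of freedom) and tested on simulated data. A fold called "at least" sets the bright group's mean against the higher of the dim probe's signal and the array's lowest signal well above background, on the deposited background subtraction, and does not hold for normexp. Precision is limited by how many arrays there are.

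The 10 genes and all gene lists were chosen with earlier results of these data known. Genes named are the 10, the 2 most correlated with each, the genes called on each family list (or up to 2 as values) and Foxc1 and Foxc2. Foxl1, Ces2b, Ces2c, Ces2e, Ces2g, Rab11fip3 and Pgm1 were named after their values were seen. Alternatives were normexp (on median signal and median background, since a mean signal column was not used here), median scaling, quantile normalization, other filters, the mean of a gene's probes, other eBayes options, a replicate block, the authors' table, fits of only the groups compared, and leaving out each array. Same-numbered arrays of a comparison deviated together (r = 0.21 in glomeruli, 0.51 at day 4 and 0.54 at day 7). There are only 2 pairs each, and no label names a shared source. On both culture slides the number 1 arrays were at positions 1 (mock) and 2 (treated), the number 2 arrays at 3 and 4. Number and slide position therefore cannot be told apart in cultures. In glomeruli, controls were at positions 1 and 2 and treated arrays at 3 and 4, so position and treatment cannot be told apart.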

Additional observations from a re-analysis of the deposited data

Results flagged for a closer look

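Rhox3a was the only one of the 10 genes whose treated arrays moved in opposite directions in different comparisons. Its log2 difference was -1.47 in glomeruli and -0.78 at day 7, with both treated arrays below both controls, and 0.15 at day 4, with both treated arrays above both mocks. The difference between the comparisons was not tested, and the signal was not well above background on any of the 8 culture arrays.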

How the results depend on the processing

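With the replicate number as a block, pairing same-numbered arrays, 9 of the 10 genes were called in glomeruli, 0 at day 4, 10 at day 7, 10 in cultures against glomeruli and 1 between the days, while calls over all genes went from 396, 32 and 148 to 451, 90 and 432 in the 3 tamoxifen comparisons and from 182 to 39 between the days. Counts for cultures against glomeruli in this paragraph include C1ql3 and Rhox3a, whose direction there was set by the filter on dim probes. In the main fit 75.2% of all genes were called in that contrast. The settings that moved a count of called members were these. Under normexp it was 0 in glomeruli, 8 at day 4, 0 at day 7, 0 between the days and 9 in cultures against glomeruli (Rhox3a lost), and calls over all genes were 5, 5068, 57, 0 and 9427. At day 4 it was 1 with median scaling, quantile normalization or a filter of 4 arrays (C1ql3 each time), and 1 with other eBayes options (Gys1). At day 7 it was 4 with no filter, and fitting only the arrays compared left 0 in glomeruli, at day 7 and between the days. Leaving out single arrays gave 2 to 8 in glomeruli (2 without treated array 1), 0 to 2 at day 4 (2 without either day 7 mock), 0 to 5 at day 7 (0 without mock array 2, either treated day 7 array or either treated day 4 array), 0 to 1 between the days and 10 to 10 in cultures against glomeruli. Under normexp the sign turned for Ddx25 at day 4 (0.46), for Rhox3a at day 7 (0.054) and in cultures against glomeruli (0.14), and between the days for Ces1f (-0.52), C1ql3 (-0.36), Tpd52l1 (-0.093), Slc35g1 (-0.16) and Rhox3a (-0.73). Under that setting the 1st percentile of signal was -1.31 and -2.57 on the treated day 4 arrays and -3.78 to -3.02 on the others; the cause was not tested. Between the days Tpd52l1 also turned with median scaling (-0.019) and without treated day 4 array 1, mock day 7 array 1 or treated day 7 array 1 (range without single arrays -0.037 to 0.097), and Slc35g1 without mock day 7 array 1 (-0.023 to 0.19). Slide as a block was not run, since each slide holds 1 comparison. Signals of Ces1f in mock cultures, C1ql3 in glomeruli and Rhox3a in cultures were too close to background for a size.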
